A study of Mus musculus with 8 samples.

Results

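The GIMAP family of lymphocyte GTPases was followed through the induction of Ikaros in T29 cells, which come from a mouse lymphoma of the thymus and lack Ikaros by the account of the submitters. Ikaros is the product of Ikzf1, a DNA-binding zinc finger protein that directs lymphocyte development. Expression was measured on 8 Affymetrix arrays in 4 groups of 2, and every group was T29 cells carrying the retroviral vector MigR1, grown in the same medium and treated for 24 h. The groups were cells with MigR1-Ik1ER in 100 nM 4-hydroxytamoxifen (4OHT), cells with MigR1-Ik1ER in ethanol, cells with empty MigR1 in 4OHT and cells with empty MigR1 in ethanol. Ik1ER is an inducible form of the Ikaros protein that 4OHT switches on, and ethanol is the vehicle. All cells are of 1 tumour line, and the labels do not say whether transduced cells were sorted or cloned. Nor do they say that replicates are separate cultures, and p-values then refer to the spread of these arrays alone, possibly a technical one.

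The members were Gimap1, Gimap3, Gimap4, Gimap5, Gimap6, Gimap7 and Gimap8, which are 7 of the 18193 genes with a probe set of 1 symbol, and 10 of 34945 such probe sets read them. Where a gene had several probe sets, the 1 with the highest mean over the 8 arrays stood for the gene, and this mean is the measured value that the selection used. The 7 genes were chosen by family with earlier results of these arrays known. Among these results was Gimap7 as 1 of the largest changes under Ikaros induction. Its values in Ik1ER cells with 4OHT are therefore given as a description, without a test. No member was left out by a filter on low values, since none was applied. The annotation gives Gimap9 as a further gene of the family, which is set beside the members.

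GIMAP proteins (GTPases of immunity-associated proteins) are small GTP-binding proteins, most of them anchored in intracellular membranes such as the endoplasmic reticulum, lysosomes and mitochondria. They are made mainly by lymphocytes, their levels change as thymocytes mature, and loss of single members in rodents shortens the life of peripheral T and B cells. The genes lie side by side in 1 cluster, on chromosome 6 in the mouse, in the order Gimap8, Gimap9, Gimap4, Gimap6, Gimap7, Gimap1, Gimap5 and Gimap3.

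The promoter windows of 4 members are shown, those of the 3 genes that read highest above ethanol with Ikaros induced and, for contrast, that of Gimap5, which did not pass the test. Each runs from 250 bases before to 50 bases after the annotated start, is taken from RefSeq on the build GRCm38.p6 and is written 5′ to 3′ on the strand of the gene. Capitals mark GGGAA or its reverse complement TTCCC, the core of the sequence that Ikaros is known to bind.
Gimap7 promoter (chr6:48718371-48718670, plus strand): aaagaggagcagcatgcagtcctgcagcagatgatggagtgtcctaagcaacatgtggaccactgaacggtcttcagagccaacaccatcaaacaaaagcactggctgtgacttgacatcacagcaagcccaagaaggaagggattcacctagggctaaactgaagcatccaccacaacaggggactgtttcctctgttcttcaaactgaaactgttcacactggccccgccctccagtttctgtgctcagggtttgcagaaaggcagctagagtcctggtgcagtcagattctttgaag
Gimap8 promoter (chr6:48646984-48647283, plus strand): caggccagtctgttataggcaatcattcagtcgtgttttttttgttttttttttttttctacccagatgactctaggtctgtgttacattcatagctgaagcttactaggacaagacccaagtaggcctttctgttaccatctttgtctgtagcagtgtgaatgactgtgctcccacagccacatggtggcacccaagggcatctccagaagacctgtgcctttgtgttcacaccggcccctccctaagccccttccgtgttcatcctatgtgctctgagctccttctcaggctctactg
Gimap6 promoter (chr6:48708195-48708494, minus strand): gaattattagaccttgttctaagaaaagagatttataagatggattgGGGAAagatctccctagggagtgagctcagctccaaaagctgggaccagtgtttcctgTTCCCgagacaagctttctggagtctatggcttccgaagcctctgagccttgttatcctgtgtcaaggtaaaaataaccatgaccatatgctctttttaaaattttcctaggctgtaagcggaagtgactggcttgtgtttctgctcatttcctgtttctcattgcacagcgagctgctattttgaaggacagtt
Gimap5 promoter (chr6:48745947-48746246, plus strand): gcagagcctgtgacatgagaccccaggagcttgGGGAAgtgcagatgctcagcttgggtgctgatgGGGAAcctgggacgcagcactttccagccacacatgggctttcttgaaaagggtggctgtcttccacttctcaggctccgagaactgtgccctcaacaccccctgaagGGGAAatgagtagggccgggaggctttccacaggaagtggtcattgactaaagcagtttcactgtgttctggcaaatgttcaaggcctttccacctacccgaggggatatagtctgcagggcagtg
The Gimap7 and Gimap8 windows held no GGGAA on either strand, the Gimap6 window held 2 and the Gimap5 window held 3. Of the windows not shown, those of Gimap1 and Gimap4 held 0, that of Gimap3 held 1 and that of Gimap9 held 3. Of the 9 windows of the family, which include a second for Gimap8 that overlaps the one shown, 4 held GGGAA, and so did 62.7% of all 32851 windows of 300 bases in the RefSeq table. The longer form TGGGAA was found in 1 of the 9 windows, that of Gimap3, against 25.6% of all windows, and it contains the shorter core. TGTGGT, a core bound by RUNX factors, was found in 3 of the 9, those of Gimap4, Gimap7 and Gimap1, against 16.8% of all. GGAAG, a core bound by ETS factors that can overlap the Ikaros core, was found in 9 of 9, against 71.4%. Both strands were searched for each. These are matches of letters in short windows and bear on no binding.

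Values are log2 expression, so that a difference of 1 is a doubling, and values of different probe sets are not comparable as levels. The array medians ranged from 5.36 to 5.43. As a gauge of background, none of the 27 Bacillus control probe sets had a mean above 5.27. One of the 2 probe sets of Ikzf1 read 10.45 to 11.27 in Ik1ER cells and 8.12 to 8.51 in MigR1 cells, while the other lay between 9.97 and 10.44 on all 8 arrays. In MigR1 cells both thus read above 5.27, although the submitters give the line as lacking Ikaros. The arrays read RNA, and the Ikaros protein was not measured here. On their controls, the Ik1ER arrays numbered 2 differed from the rest, with a 3′ over 5′ difference of the transferrin receptor probe sets of 1.91 in 4OHT and 1.66 in ethanol, against 1.15 to 1.39 on the other 6 arrays. T cell markers averaged 10.11 to 10.65 over 7 genes on each array, with gene means from 5.36 for Cd2 to 13.42 for Cd3d. In Ik1ER cells 3 of the 7 genes rose with 4OHT (Cd8a, Cd2 and Cd4) and 3 fell (Cd3g, Cd3d and Cd3e). Of all genes, 5.35% were called in either direction in that comparison. Without both of the Ik1ER arrays numbered 2, Cd2, Cd3g, Cd3d and Cd3e were not called (adjusted p = 0.0578 to 0.164), and without Ik1ER ethanol replicate 2 neither were Cd8a (0.104) and Cd4 (0.150). The corresponding ranges were 4.81 to 5.03 for B cell, 4.72 to 4.95 for myeloid, 4.69 to 4.98 for NK cell, 4.62 to 4.82 for erythroid, and 5.67 to 5.88 for stromal and endothelial markers. In the last list Pdgfrb averaged 9.06 and Pecam1 8.01. The averages mix different probe sets, so they describe the lists and do not compare levels between them. Of these other markers, Pecam1 rose by 0.79, Itgam by 0.54 and Prf1 by 0.52, and Lyz2 fell by 0.60, and without Ik1ER ethanol replicate 2 Pecam1 alone of the 4 was still called. The part of these shifts in the results below was not tested.

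Induction of Ikaros raised part of the family strongly and left other members within or close to the spread of the arrays. In Ik1ER cells, Gimap7, Gimap8 and Gimap6 read 3.94-fold, 2.99-fold and 2.65-fold higher in 4OHT than in ethanol, Gimap1 read 1.59-fold higher without passing the test, and Gimap4, Gimap5 and Gimap3 differed by 1.18-fold to 1.29-fold. No member was lower. Of the 6 members other than Gimap7, limma, a linear model with moderated variances, called 2 higher at an adjusted p under 0.05 over all genes (Gimap8 and Gimap6) and none lower, while of the 18193 genes 2.84% were called higher and 5.35% in either direction. The median change of the 7 members was 0.67 on the log2 scale, against -0.00386 over all genes. Since the members were chosen with these values known, nothing is read from that share. The adjusted p-values of Gimap8 and Gimap6 cover all genes but do not allow for that choice.

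**Figure D1:**
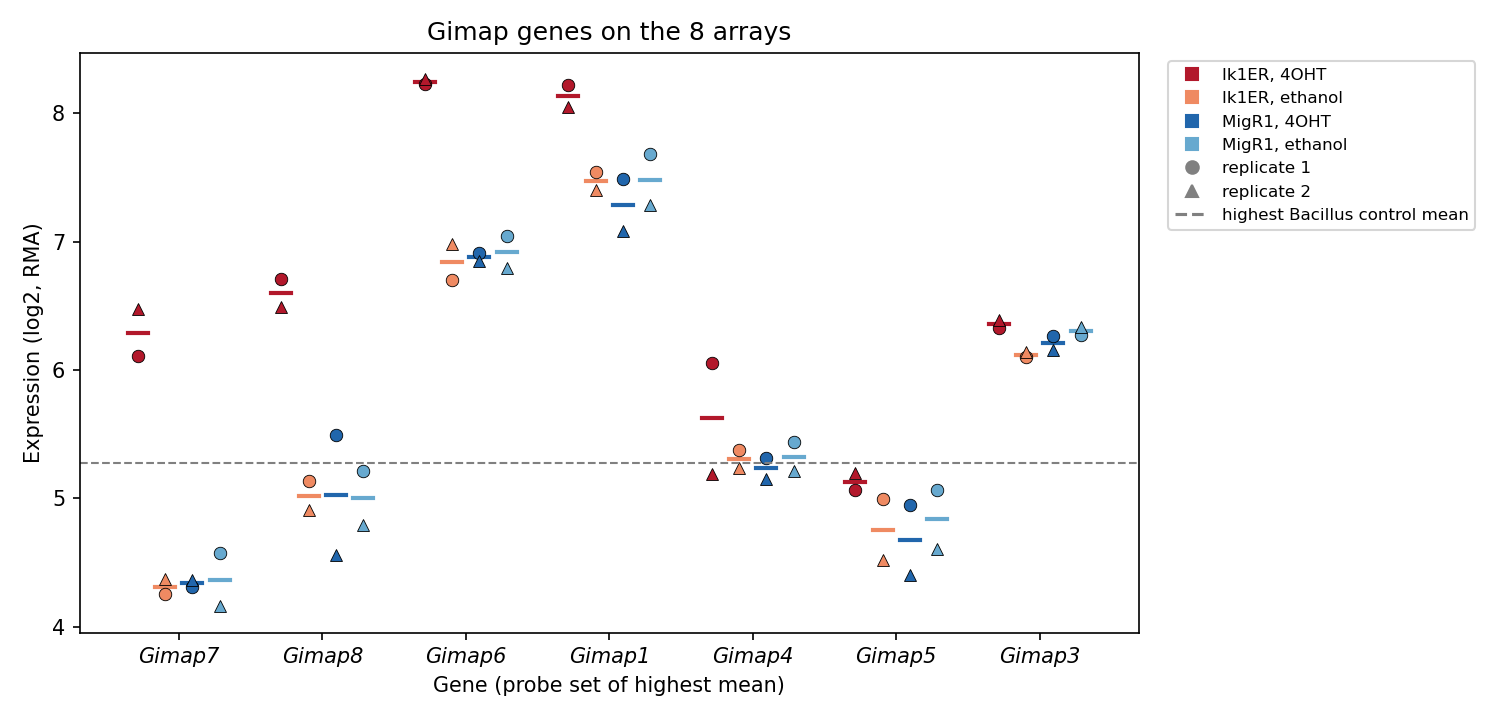
Log2 expression of the 7 Gimap genes on each of the 8 arrays, by group, with a bar at the mean of the 2 arrays of a group and a dashed line at the highest Bacillus control mean (5.27). For Gimap7, Gimap8, Gimap6 and Gimap1 both arrays of Ik1ER cells in 4OHT lie above the other 6 arrays, and for Gimap4 the 2 arrays of that group differ from each other.

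Gimap7 showed the widest difference of the family. Its human counterpart is known to pair with GIMAP2 and speed its GTP hydrolysis. The gene read 6.11 and 6.47 in Ik1ER cells in 4OHT, against 4.25 and 4.37 in Ik1ER cells in ethanol, and it read 4.31 and 4.36 in MigR1 cells in 4OHT, against 4.58 and 4.16 in MigR1 cells in ethanol. The 2 arrays with active Ik1ER were thus the only ones above the highest Bacillus control mean, and the other 6 arrays overlapped one another below it. The difference in Ik1ER cells was 1.98 (SE 0.16), the ninth largest increase among all 18193 genes. Because its lower values lie at background, the size of this difference may be compressed.

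Gimap8 encodes the longest protein of the family, which carries several GTP-binding domains. It read 6.71 and 6.49 in Ik1ER cells in 4OHT, against 5.13 and 4.91 in Ik1ER cells in ethanol. In MigR1 cells it read 5.49 and 4.56 in 4OHT, against 5.21 and 4.79 in ethanol. Both arrays with active Ik1ER exceeded all others, and the arrays of MigR1 cells in 4OHT were the most spread (SD 0.66). The ethanol arrays of the Ik1ER line lie below the highest Bacillus control mean, so that the size of the difference may be compressed here too. With 4OHT in Ik1ER cells Gimap8 rose by 1.58 (SE 0.28, limma, adjusted p = 0.0160). The call was lost without Ik1ER 4OHT replicate 1 (adjusted p = 0.0785), without Ik1ER ethanol replicate 1 (0.0640) or replicate 2 (0.101), and without both replicate 2 arrays of the line (0.177), while the difference stayed between 1.47 and 1.69.

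Gimap6, which binds the ATG8 protein GABARAPL2 of the autophagy machinery and is needed for T cell survival in mice, had closely spaced arrays. It read 8.23 and 8.26 in Ik1ER cells in 4OHT, against 6.70 and 6.98 in Ik1ER cells in ethanol. In MigR1 cells it read 6.91 and 6.85 in 4OHT, against 7.05 and 6.79 in ethanol. The 6 arrays without active Ik1ER overlapped and all lay above the Bacillus controls. Gimap6 rose by 1.41 (SE 0.12, limma, adjusted p = 0.000784), and its call held in all 17 alternatives run, with an adjusted p of at most 0.0160.

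Gimap1 is needed for the maturation and maintenance of T and B cells in mice. It read 8.22 and 8.05 in Ik1ER cells in 4OHT, against 7.54 and 7.40 in Ik1ER cells in ethanol. In MigR1 cells it read 7.49 and 7.08 in 4OHT, against 7.68 and 7.28 in ethanol. Both arrays with active Ik1ER lay above all others, but the difference of 0.67 (SE 0.17) did not pass (limma, adjusted p = 0.0644). With the trend and robust settings of eBayes (adjusted p = 0.0318) or with the Ik1ER arrays alone (0.0422) it did. It passed in 3 of the 17 alternatives run, the third of which is given with the alternatives below. Across the 17 the difference lay between 0.58 and 0.75.

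The other members were nearer to the spread of the arrays. Gimap5, whose loss causes T cell lymphopenia in rats and mice, read 5.06 and 5.20 in Ik1ER cells in 4OHT, against 5.0 and 4.52 in Ik1ER cells in ethanol. It read 4.95 and 4.41 in MigR1 cells in 4OHT, against 5.06 and 4.61 in MigR1 cells in ethanol. All 8 values lay below the highest Bacillus control mean, and the difference in Ik1ER cells was 0.37 (95% interval -0.15 to 0.90, limma, adjusted p = 0.478). It was 0.61 without Ik1ER ethanol replicate 1, 0.13 without replicate 2 of that group and 0.07 without both replicate 2 arrays of the line. Gimap3, a close relative of Gimap5 that is a pseudogene in humans, read 6.33 and 6.39 in Ik1ER cells in 4OHT, against 6.10 and 6.14 in Ik1ER cells in ethanol. It read 6.26 and 6.15 in MigR1 cells in 4OHT, against 6.27 and 6.34 in MigR1 cells in ethanol. The arrays with active Ik1ER lay above the ethanol arrays of their line but overlapped the ethanol arrays of MigR1 cells, and the difference in Ik1ER cells was 0.24 (95% interval 0.07 to 0.41, unadjusted, and limma adjusted p = 0.128). In all, the 2 arrays in 4OHT lay above both ethanol arrays of the Ik1ER line in 6 of the 7 members, Gimap4 being the exception, and so they did in 21.1% of all genes.

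Gimap4, which has been tied to the pace of T cell death, depended on the probe set. By its brighter probe set it read 6.06 and 5.19 in Ik1ER cells in 4OHT, against 5.38 and 5.24 in Ik1ER cells in ethanol, and 5.32 and 5.15 in MigR1 cells in 4OHT, against 5.44 and 5.21 in MigR1 cells in ethanol. A single array was high, and the difference of 0.32 (SE 0.24, limma, adjusted p = 0.586) turned to -0.11 without Ik1ER 4OHT replicate 1 and was called, at 0.75, without Ik1ER 4OHT replicate 2 (adjusted p = 0.0255). By its other probe set it read 5.48 and 5.01 in Ik1ER cells in 4OHT, against 4.46 and 3.95 in Ik1ER cells in ethanol, and 4.50 and 4.01 in MigR1 cells in 4OHT, against 4.55 and 3.86 in MigR1 cells in ethanol. Here both arrays with active Ik1ER lay above the other 6, and the difference was 1.04, or 2.06-fold (SE 0.28, limma, adjusted p = 0.137 over all probe sets). In every group this probe set read higher on replicate 1 than on replicate 2, and so did the brighter probe set, Gimap1 and Gimap8. The name of this other probe set of Gimap4 ends in _s_at, which Affymetrix gives to probe sets that may match more than 1 transcript.

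The other genes with 2 probe sets were Gimap6 and Gimap7. The dimmer probe set of Gimap6 read 3.57 and 3.82 in Ik1ER cells in 4OHT, against 3.48 and 3.52 in Ik1ER cells in ethanol, a difference of 0.20. That of Gimap7 read 4.58 and 4.63 in Ik1ER cells in 4OHT, against 4.38 and 4.17 in Ik1ER cells in ethanol, a difference of 0.32. Both lay below the highest Bacillus control mean on all 8 arrays. In Ik1ER cells both had the direction of the brighter probe set at a fraction of its size, without a call (limma, adjusted p over all probe sets of 0.566 for Gimap6). In MigR1 cells the dimmer probe set of Gimap7 also read higher in 4OHT, by 0.20, and that of Gimap6 by 0.0017. The 4OHT effects of the 2 lines thus differed by 0.13 for Gimap7 and by 0.20 for Gimap6 on these probe sets. The differences of Gimap6 and of Gimap7 thus rest on 1 probe set each. With the mean over the probe sets in place of the brighter one, the difference was 0.80 for Gimap6 and 1.15 for Gimap7.

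**Figure D2:**
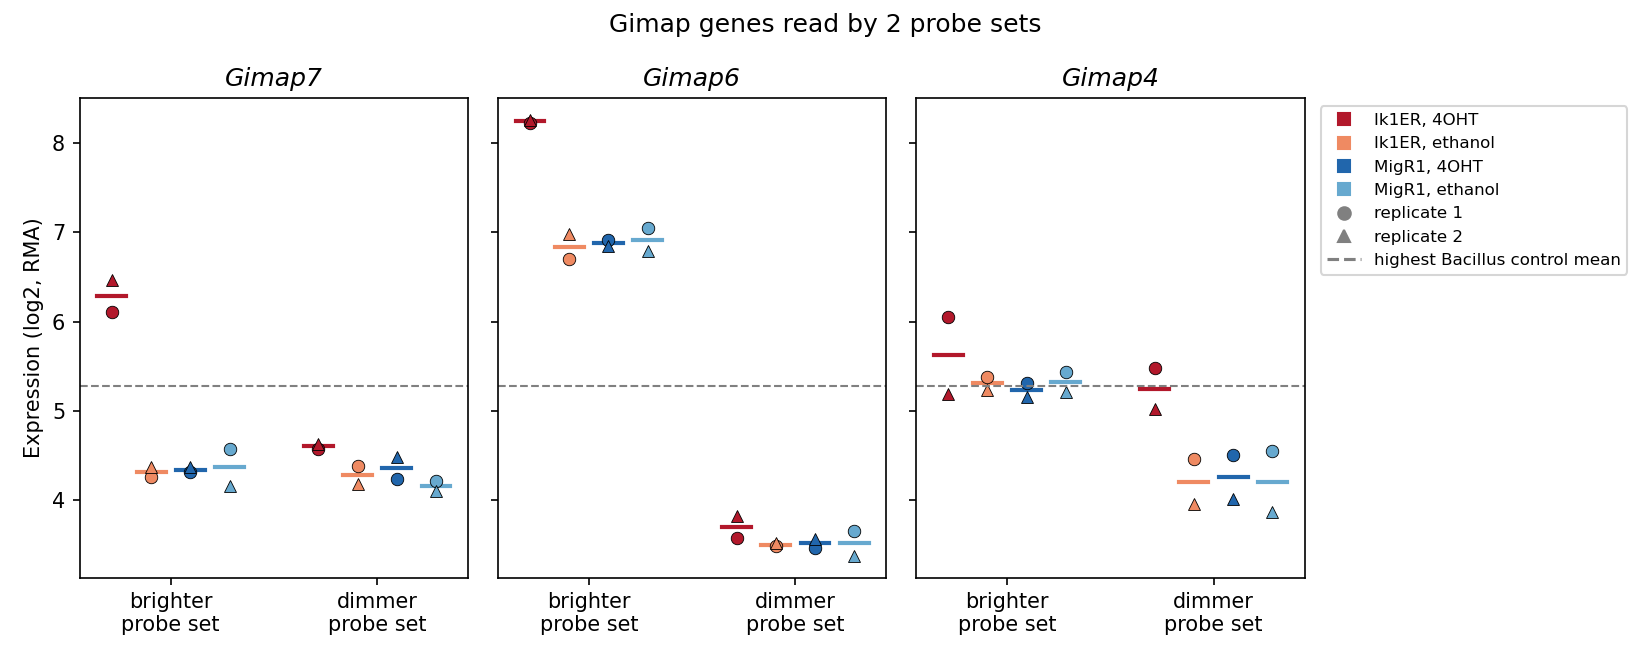
Log2 expression on each of the 8 arrays for the 3 Gimap genes with 2 probe sets, by group, with a bar at the mean of the 2 arrays and a dashed line at the highest Bacillus control mean (5.27). The brighter probe set separates Ik1ER cells in 4OHT for Gimap7 and Gimap6, the dimmer one does so for Gimap4, and the dimmer probe sets of Gimap7 and Gimap6 stay below the dashed line on all arrays.

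4OHT itself, tested in cells with the empty vector, moved no member past the threshold. The differences in MigR1 cells lay between -0.20 for Gimap1 and 0.02 for Gimap8 with a median of -0.09, 6 of the 7 being below 0. limma called 0 of 7, and 0 were under an unadjusted p of 0.05, while 0.0055% of all genes were called in either direction. The widest 95% intervals of the 7 reached -0.68 for Gimap5 and 0.66 for Gimap8. A fall of that size for Gimap5 and a rise of that size for Gimap8 in MigR1 cells were thus not excluded. For Gimap6 the interval was -0.31 to 0.23.

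**Figure D3:**
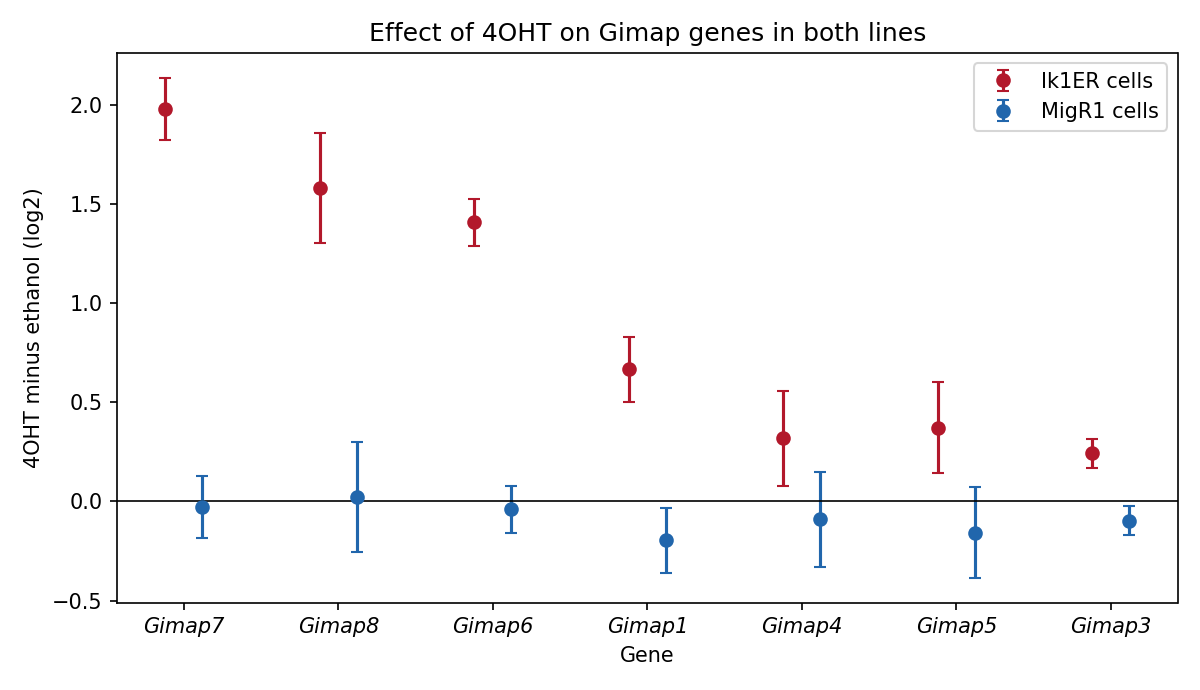
Difference between 4OHT and ethanol (log2, with standard errors from limma) for the 7 Gimap genes in Ik1ER cells (red) and in MigR1 cells (blue). In Ik1ER cells the differences range from 0.24 to 1.98, and in MigR1 cells from -0.20 to 0.02.

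The difference between the 4OHT effects of the 2 lines was tested as an interaction. It was positive for all 7 members, with a median of 0.86, and of the 6 other than Gimap7 it was called for 1, Gimap6, while 0.621% of all genes were called in this direction and 1.26% in either. The 4OHT effect on Gimap6 was larger in Ik1ER than in MigR1 cells by 1.45 (SE 0.17, limma, adjusted p = 0.00906), a call that was lost without MigR1 4OHT replicate 2 (adjusted p = 0.0554). For Gimap7 the difference was 2.01 (SE 0.22), given without a test. For Gimap8 it was 1.56 (SE 0.39, limma, adjusted p = 0.127). It was 2.02 without MigR1 4OHT replicate 1 and 1.09 without MigR1 4OHT replicate 2. For Gimap1 it was 0.86 (SE 0.23, adjusted p = 0.158), and for the other 3 members it lay between 0.34 and 0.53 without a call, that of Gimap5 being 0.22 without both replicate 2 arrays of the Ik1ER line. This comparison, the one within Ik1ER cells and the one between the lines in 4OHT share the arrays of Ik1ER cells in 4OHT and are no independent repeats of one another.

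Between the lines, some members differed with 4OHT, and none passed the test without it. In ethanol, limma called 0 of 7 in Ik1ER against MigR1 cells and 0% of all genes, and 1 of the 7 was under an unadjusted p of 0.05, namely Gimap3. The differences lay between -0.19 for Gimap3 and 0.02 for Gimap8 with a median of -0.05, and for Gimap6 the 95% interval was -0.35 to 0.19. In 4OHT, 3 of the 6 members other than Gimap7 were called higher in Ik1ER cells, against 2.92% of all genes called higher and 5.1% in either direction, and the median was 0.85. Both Ik1ER arrays exceeded both MigR1 arrays in 6 of the 7, Gimap4 again excepted, and in 22.1% of all genes. Gimap6 was 1.37 higher (SE 0.12, limma, adjusted p = 0.000874), Gimap8 1.57 higher (SE 0.28, adjusted p = 0.0180) and Gimap1 0.85 higher (SE 0.17, 1.80-fold, adjusted p = 0.0265), and Gimap7, given without a test, read 1.95 higher. Gimap5 (0.45, adjusted p = 0.363), Gimap4 (0.39, 0.465) and Gimap3 (0.15, 0.358) did not pass, and Gimap4 did, at 0.82, without Ik1ER 4OHT replicate 2 (0.0222). Gimap8 lost this call without either Ik1ER 4OHT array or MigR1 4OHT replicate 2 (adjusted p = 0.0536 to 0.0725). Gimap1 lost it without the same arrays (0.0666 to 0.163), and both genes lost it without both replicate 2 arrays of the Ik1ER line (0.0954 and 0.101). In bulk RNA a higher reading from more cells that express a gene and from more RNA per cell cannot be told apart.

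Gimap9 and the genes that flank the cluster did not pass the test upward. Gimap9 lies between Gimap8 and Gimap4 and read 9.16 and 9.10 in Ik1ER cells in 4OHT, against 8.75 and 8.76 in Ik1ER cells in ethanol. It read 8.94 and 8.60 in MigR1 cells in 4OHT, against 8.95 and 8.64 in MigR1 cells in ethanol. Both arrays with active Ik1ER were the highest of the 8, yet the difference of 0.38 (SE 0.13, limma, adjusted p = 0.186) was not called. Along the chromosome, the 3 genes with the largest differences were thus Gimap8 at one end and the neighbours Gimap6 and Gimap7 in the middle, with Gimap9 and Gimap4 between them. Gimap6 and Gimap3 are transcribed from the minus strand and the others from the plus strand, so that Gimap6 and Gimap7 are transcribed away from each other.

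Of the 5 protein-coding genes annotated on either side of the cluster, 8 of 10 were measured. In Ik1ER cells 5.35% of all genes were called in either direction, and of these neighbours 2 were called. Both were lower, and they are the 2 genes next to Gimap3. They encode the related membrane proteins TMEM176B and TMEM176A. Tmem176b read 8.84 and 9.29 in Ik1ER cells in 4OHT, against 9.96 and 10.37 in Ik1ER cells in ethanol, and 9.91 and 9.91 in MigR1 cells in 4OHT, against 9.83 and 9.85 in MigR1 cells in ethanol. It fell by 1.10 (SE 0.17, limma, adjusted p = 0.00949), which was not called without Ik1ER ethanol replicate 2 (adjusted p = 0.0507) or with the Ik1ER arrays alone (0.0583). Tmem176a fell by 0.81 (SE 0.18, adjusted p = 0.0399), and its call was lost without Ik1ER 4OHT replicate 1 (0.138), without Ik1ER ethanol replicate 2 (0.176) and without any 1 of the 4 MigR1 arrays (0.0736 to 0.0762). Its other 2 probe sets read -0.63 and -1.01. Tmem176a read 8.67 and 8.72 in MigR1 cells in 4OHT, against 8.63 and 8.72 in ethanol. The interaction was called for neither gene, at -1.17 for Tmem176b (limma, adjusted p = 0.0699) and -0.83 for Tmem176a (0.220). In 4OHT, Ik1ER against MigR1 cells differed by -0.85 for Tmem176b (limma, adjusted p = 0.0278) and -0.47 for Tmem176a (0.217). In ethanol, Ik1ER cells read 0.32 and 0.36 higher, without a call. The measured neighbours that were not called, Lrrc61, Rarres2, Repin1, Zfp775, Aoc1 and Doxl1, lay between -0.22 and 0.28.

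**Figure D4:**
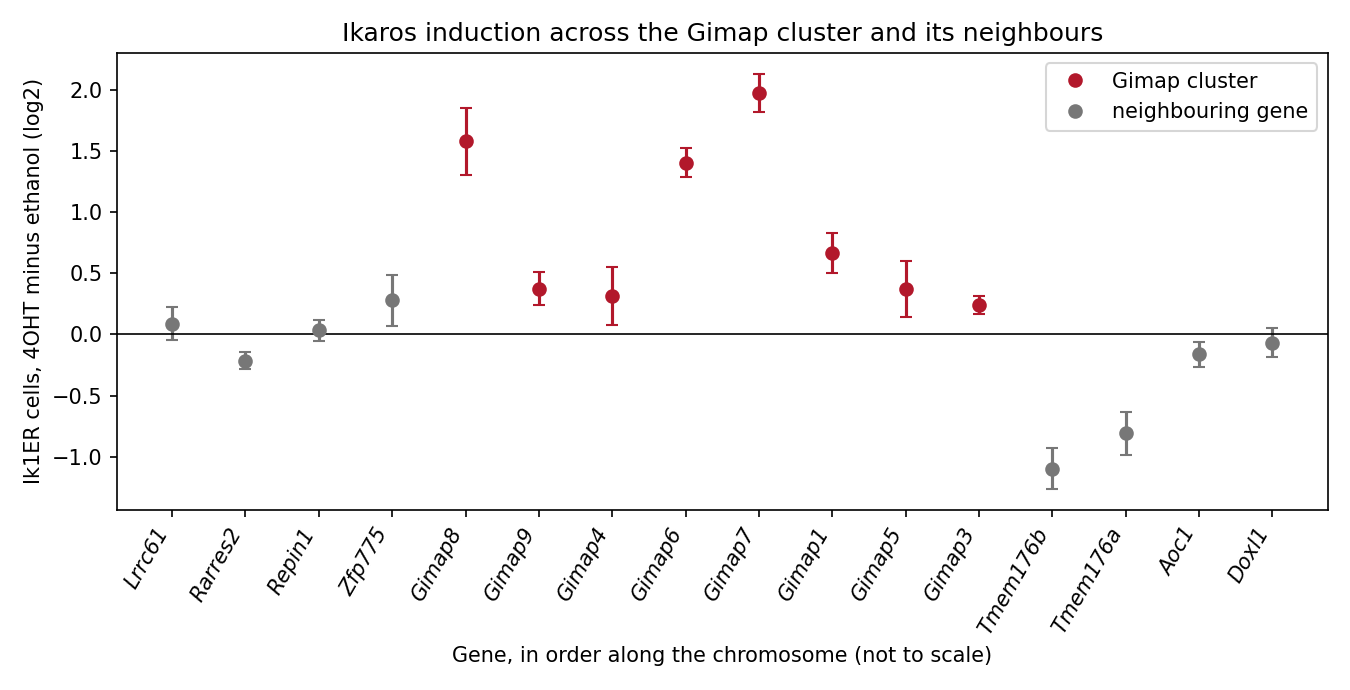
Difference between 4OHT and ethanol in Ik1ER cells (log2, with standard errors from limma) for the 8 genes of the Gimap cluster (red) and the 8 measured neighbours (grey), in their order along mouse chromosome 6 and not to scale. Gimap8, Gimap6 and Gimap7 stand highest, and Tmem176b (-1.10) and Tmem176a (-0.81), next to Gimap3, stand lowest.

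Genes tied to the family by function were read from 3 lists. Of 20 measured genes of T cell maturation and survival, in the course of which GIMAP levels change, 7 rose in Ik1ER cells with 4OHT, none fell and 13 were not called, with a median of 0.32 on the log2 scale against -0.00386 over all genes, of which 2.84% were called higher. They included Tespa1, a T cell receptor signalling protein of thymocyte selection (0.83, SE 0.11, limma, adjusted p = 0.00541), the integrin gene Itgae (1.01), the transcription factor gene Foxo1 (0.91) and the phosphatase gene Ptprc (0.41). Il7r, the receptor chain of the survival cytokine IL-7, read -0.08 (adjusted p = 0.818). Without Ik1ER ethanol replicate 2 the calls of Itgae (adjusted p = 0.0669), Foxo1 (0.0531) and Ptprc (0.102) were lost, Foxo1 and Ptprc also lost theirs without Ik1ER ethanol replicate 1 (0.0795 and 0.0590) and Ptprc without Ik1ER 4OHT replicate 1 (0.0569), whereas Tespa1 passed whichever array was left out (at most 0.0424). Several of these genes were known to change in these arrays when the list was written.

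Of 8 measured BCL2 family genes, some of whose proteins have been reported to bind GIMAP proteins, 1 fell, none rose and 7 were not called (median 0.20), where 5.35% of all genes were called in either direction. The survival gene Bcl2l2 fell by 0.88 (SE 0.11, limma, adjusted p = 0.00388), while Bcl2 read -0.51 (adjusted p = 0.211) and Bcl2l1 0.24 (0.184). Of 14 genes of the ATG8 and autophagy machinery, 1 rose, none fell and 13 were not called (median 0.11), a share near that 5.35%. Atg12, whose product is conjugated to ATG5, rose by 0.40 (adjusted p = 0.0313), a call lost without any 1 of the 4 Ik1ER arrays or either MigR1 4OHT array (0.0570 to 0.148), and Gabarapl2, the known partner of Gimap6, read 0.28 (adjusted p = 0.244).

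The profile of Gimap7, the member with the widest range of group means, was compared with 186 genes outside the family. These are the genes whose own group means spanned at least 1, with predicted and clone-named genes left out. Over the 8 arrays the highest Pearson correlations were those of Dynlrb2 (0.996), Cdyl2 (0.995), Ankrd44 (0.993), Ms4a4d (0.991) and Prkcq (0.990). Prkcq encodes protein kinase C theta of T cell receptor signalling and read 1.07 higher in 4OHT than in ethanol in Ik1ER cells. Dynlrb2, a dynein light chain gene, read 1.77 higher. The most opposed profiles were those of Slfn2 (-0.991), Scn2b (-0.988), Mpzl2 (-0.988), Arpin (-0.981) and Paqr5 (-0.976). Slfn2, a gene of T cell quiescence, read -1.04 in that comparison. Within the family, Gimap6 had the closest profile to Gimap7 (0.991), followed by Gimap8 (0.920) and Gimap1 (0.879), and Gimap4 the least close (0.459). The arrays are shared by all these genes, and 2 of the 8 stand apart from the rest. Such values thus describe a common high reading in Ik1ER cells in 4OHT, or a low one for the opposed profiles.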

How the data were processed

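The deposited table holds 1 column of log2 expression values per array, made by the authors with RMA per the submitters' processing notes, from biotin-labelled RNA per the labels' protocols. Here neither the version of RMA nor a genome build is given. RMA compresses differences of dim probe sets. Gene names come from GEO's platform table, in which 34945 probe sets have 1 symbol and 932 several, while 9160 are unnamed and 64 are controls. The probe set of highest mean stood for its gene (_x_at only where no other existed). A model of the 4 group means was fitted over the 8 arrays in limma 3.58.1 (lmFit, eBayes; R 4.3.3), tested on simulated data, with 4 residual degrees of freedom, and p-values were adjusted by Benjamini-Hochberg within each contrast. The number of arrays limits the precision. SEs and 95% intervals are limma's, and SDs are over 2 arrays.

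Members and lists were chosen with earlier results of these data known. Genes outside the family were named by rule, as the 5 protein-coding RefSeq neighbours on either side, up to 4 called genes of smallest p per list, and the 5 highest and 5 lowest correlations with Gimap7. Predicted and clone-named genes were left out of these correlations. Il7r, Bcl2, Bcl2l1 and Gabarapl2 were named after their values were seen. The alternatives tried were a block for the replicate number, leaving out dim genes, trend and robust eBayes, repeated quantile normalization, median centring, other uses of probe sets, only the arrays compared, and arrays left out.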

Additional observations from a re-analysis of the deposited data

Results flagged for a closer look

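By 1 of its 2 probe sets, Gimap6 responded differently to 4OHT in the 2 lines. The 4OHT effect in Ik1ER cells exceeded that in MigR1 cells by 1.45 on the log2 scale (SE 0.17, limma interaction, adjusted p = 0.00906). Both 4OHT arrays of Ik1ER cells lay above the other 6 arrays. The call did not hold without MigR1 4OHT replicate 2, where the difference was 1.41. By the dimmer probe set, which lay below the highest Bacillus control mean, the difference was 0.20 (limma interaction, adjusted p = 0.847 over all probe sets).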

How the results depend on the processing

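For the members' single differences, Gimap7 included, 312 of 341 alternative values kept their direction and their side of the threshold, 17 lost a call, 9 gained one and 3 changed sign. The sign changes were all of Gimap4 without Ik1ER 4OHT replicate 1, at -0.11 within Ik1ER cells, -0.0237 for the interaction and -0.0408 between the lines in 4OHT, where without replicate 2 of that group they were 0.75, 0.84 and 0.82. With Gimap7 counted, the interaction was called for 2 members, against 4 with the replicate block, 1 of the 4 left by the filter on dim genes, 1 without both replicate 2 arrays of the Ik1ER line, and 1 to 3 with an array left out. Ik1ER against MigR1 cells in 4OHT gave 4 calls, against 2 with only the arrays compared and 2 to 4 with an array left out. Gimap7, known beforehand as a large change, is in all of these counts, and nothing about it is read from them. The replicate numbers are no stated pairing. Deviations of same-numbered arrays correlated at 0.45 within the Ik1ER line and 0.27 within MigR1, and between -0.07 and 0.10 across the lines. With the replicate block, the difference of Gimap1 in Ik1ER cells (adjusted p = 0.00849) and the interactions of Gimap1 and Gimap8 (0.0292 for each) were called. Over all genes, 973 were called in Ik1ER cells, against 412 with only the arrays compared, 388 without both replicate 2 arrays, and 439 and 440 without Ik1ER ethanol replicate 1 and 2. The interaction had 229, against 439 with trend and robust settings, 100 without both replicate 2 arrays, and 51 to 269 with an array left out. Ik1ER against MigR1 cells in 4OHT had 928, against 429 with only the arrays compared, 594 without both replicate 2 arrays, and 242 to 812 with an array left out. In MigR1 cells 1 gene was called, against 0 to 1 in the alternatives, and in ethanol 0, against 0 to 1. The causes were not tested, except that fewer arrays enter these fits. Low signal limits Gimap5, Gimap4, the baselines of Gimap7 and Gimap8, and the dimmer probe sets.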
